A study of Mus musculus with 10 samples.

Results

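The genes described here are 10 signature genes of type 2 conventional dendritic cells (cDC2s), measured in sorted type 1 conventional dendritic cells (cDC1s) of the mouse spleen. They are Clec7a, Cd209a, Mgl2, Sirpa, Itgam, Esam, Irf4, Klf4, Rtn1 and S100a4. They were taken by name, and all 10 had a probe set that carries the gene's symbol alone, among 19938 genes measured in that way. Total RNA was hybridised to 10 Affymetrix Mouse Gene arrays, 1 per sample. The genotypes without Zeb2 were Zeb2 KO (3 arrays), Nfil3 Zeb2 DKO (2 arrays), which also lacked Nfil3, and Zeb2 Id2 DKO (2 arrays), which also lacked Id2. WT cells (3 arrays) carried none of these deletions. How each gene was deleted, the gate of the sort, and the age and strain of the mice are not stated in the sources used here. The labels do not say that replicates came from separate mice, so the p-values below measure the spread between these samples only, which may be technical.

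Conventional dendritic cells fall into the cDC1 and cDC2 lineages. cDC1s carry XCR1 and CLEC9A, depend on IRF8 and BATF3, and cross-present antigen to CD8 T cells. cDC2s carry SIRP-alpha and CD11b, depend on IRF4, and mainly prime CD4 T cells. In the spleen, one set of cDC2s carries ESAM and depends on NOTCH2. ZEB2 is a zinc finger repressor required for the development of plasmacytoid dendritic cells and cDC2s, NFIL3 is a bZIP repressor required for cDC1s, and ID2 is a helix-loop-helix protein that holds E proteins off DNA. Loss of Nfil3 or of Id2 alone takes away cDC1s, and cells of both DKO genotypes could be sorted as cDC1s. The comparisons below ask whether cDC2 genes differed in cDC1s that formed without ZEB2, with or without NFIL3 or ID2.

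Rtn1 and Clec7a, described below, were lower without Zeb2, and Cd209a had the largest difference of the 10 genes in Zeb2 KO cells. One start region of each is shown for that reason. Rtn1 has 3 such windows in RefSeq, and the one printed is the one that holds CACCT (2 matches); the other 2 hold none. Clec7a has 2 that overlap, of which the first is printed. The windows run 5′ to 3′ on the gene's strand, from 250 bases before to 50 bases after an annotated start, and come from RefSeq (GRCm38.p6): Rtn1 at chr12:72235697-72235996, Clec7a at chr6:129472730-129473029 and Cd209a at chr8:3748935-3749234, all on the minus strand. Capitals mark each match, on either strand, of CANNTG, the E-box bound by E proteins, and of CACCT, the core of the site bound by ZEB proteins.
Rtn1: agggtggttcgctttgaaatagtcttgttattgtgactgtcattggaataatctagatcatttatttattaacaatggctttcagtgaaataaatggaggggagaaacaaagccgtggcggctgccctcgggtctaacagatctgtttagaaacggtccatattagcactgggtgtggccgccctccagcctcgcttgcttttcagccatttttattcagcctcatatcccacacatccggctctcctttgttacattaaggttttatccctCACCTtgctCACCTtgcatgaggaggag
Clec7a: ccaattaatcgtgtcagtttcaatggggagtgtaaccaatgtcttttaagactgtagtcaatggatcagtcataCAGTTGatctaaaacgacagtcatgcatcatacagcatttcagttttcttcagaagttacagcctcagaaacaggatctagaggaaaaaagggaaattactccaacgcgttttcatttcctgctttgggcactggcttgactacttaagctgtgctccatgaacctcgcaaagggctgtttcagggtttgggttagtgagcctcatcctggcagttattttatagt
Cd209a: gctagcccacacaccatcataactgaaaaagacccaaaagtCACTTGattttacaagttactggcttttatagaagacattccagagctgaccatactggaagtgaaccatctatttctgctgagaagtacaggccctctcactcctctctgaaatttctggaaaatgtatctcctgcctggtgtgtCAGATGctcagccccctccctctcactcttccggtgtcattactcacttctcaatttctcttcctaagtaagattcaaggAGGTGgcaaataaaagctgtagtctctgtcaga
Windows were found for 8 of the 10 genes, 11 windows in all. CANNTG stood in 8 of these 11 windows, and in 72.3% of all 32851 windows of this length. CACCT stood in 4 of the 11 windows, of Cd209a, Irf4, Itgam and Rtn1, against 51.9% of all windows. CACCTG, the longer ZEB site, which holds both of these motifs, stood in 0 of the 11 windows and in 20.2% of all windows. The NFIL3 site TTACGTAA stood in 0 of the 11 and in 0.119% of all windows. These matches describe the letters only, and neither binding nor the use of a start was measured.

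The labels were checked on the targeted genes and on markers of the sorted cell. Nfil3 had a log2 intensity of 6.20 and 7.09 in the Nfil3 Zeb2 DKO arrays, against 9.98 to 10.77 in WT. Id2 had 5.01 and 4.98 on the arrays of Zeb2 Id2 DKO cells, against 10.15 to 10.43 in WT. The Zeb2 probe set was at 6.10, 6.27 and 5.40 in Zeb2 KO cells, 6.46 and 6.24 in Nfil3 Zeb2 DKO cells, 6.78 and 6.82 in Zeb2 Id2 DKO cells, and 5.93 to 6.30 in WT. It was called lower than WT in none of the 3 genotypes labelled as lacking Zeb2, and in Zeb2 Id2 DKO it lay above every WT array (log2 fold change 0.72, limma adjusted p = 0.184). The sources used here do not say where its probes lie relative to the deleted part, so the probe set does not check these labels, and "without Zeb2" below follows the labels. The mean of 10 cDC1 markers was 11.45 to 11.61 on every array, although one of them, Cadm1, was lower in Zeb2 Id2 DKO cells than in WT cells (log2 fold change -0.87, adjusted p = 0.00225). Markers of other cells differed between arrays. The mean of 11 neutrophil markers was 8.46 to 9.50 in Zeb2 KO cells, 7.43 and 8.05 in Nfil3 Zeb2 DKO cells, 8.30 and 9.49 in Zeb2 Id2 DKO cells and 6.77 to 7.05 in WT. The mean of 7 B cell markers was highest in WT replicate 1 (7.88) and Zeb2 KO replicate 2 (7.33) and 6.25 to 6.75 on the other arrays. The mean of 7 markers of plasmacytoid dendritic cells was 7.63 to 7.78 in Zeb2 KO cells, 7.90 and 7.93 in Nfil3 Zeb2 DKO cells, 8.64 and 8.47 in Zeb2 Id2 DKO cells and 7.82 to 8.03 in WT, and 3 of the 7 were called higher in Zeb2 Id2 DKO cells than in WT cells. The mean of 7 T cell markers was 6.11 to 6.24 in Zeb2 KO cells, 6.66 and 6.50 in Nfil3 Zeb2 DKO cells, 5.98 and 6.05 in Zeb2 Id2 DKO cells and 6.29 to 6.53 in WT, and 3 of the 7 were called lower in Zeb2 Id2 DKO cells than in WT cells. The part of these cells in the values below was not tested. In sorted bulk samples, fewer cells of a type and less RNA per cell cannot be told apart.

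Levels below are log2 intensities. Because probe sets differ in brightness, each gene is compared with itself across genotypes. A gene was called when its adjusted p in a limma fit over all genes was under 0.05. All comparisons with WT share the same 3 WT arrays.

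Rtn1 and Clec7a were the genes of the group called lower in cells without Zeb2, by 1.85-fold to 2.16-fold. Rtn1 was called lower in Zeb2 KO cells, in Zeb2 Id2 DKO cells and in the mean of the 3 genotypes without Zeb2, and Clec7a in that mean. Falls of like or larger size were not called for Cd209a in Zeb2 KO cells (2.63-fold, limma adjusted p = 0.168) and Esam in Zeb2 Id2 DKO cells (2.02-fold, limma adjusted p = 0.115). In Zeb2 KO cells against WT, 1 of the 10 genes was called lower and 0 higher, where 0.0201% of all genes were called (0.015% lower), and 7 of the 10 had an unadjusted p under 0.05 (7.39% of all genes). For Zeb2 Id2 DKO cells, 1 was called lower and 0 higher than WT, where 1.43% of all genes were called (0.557% lower and 0.878% higher), and 5 had an unadjusted p under 0.05 (10.2% of all genes). For the mean of the 3 genotypes, 2 were called lower and 0 higher, where 0.236% of all genes were called (0.155% lower and 0.0802% higher). None was called by limma in Nfil3 Zeb2 DKO cells, where 0.00502% of all genes were called, and 3 of the 10 had an unadjusted p under 0.05, against 4.16% of all genes.

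The values of the 10 genes leaned below WT in Zeb2 KO cells, with 9 of 10 below 0 and a median log2 fold change of -0.49, against a median of 0.00 over all genes. All 3 Zeb2 KO arrays were below all WT arrays for 5 of the 10 (Rtn1, Clec7a, Cd209a, Mgl2 and S100a4), where this held for 5.03% of all genes, and above them for Itgam (5.37% of all genes). In Nfil3 Zeb2 DKO, 6 of 10 values were below 0 with a median of -0.18, and the arrays were below WT for 3 genes, Rtn1, Clec7a and Irf4 (10.7% of all genes), and above it for Itgam (13.1%). In Zeb2 Id2 DKO, 7 of 10 values were below 0 with a median of -0.10, and the arrays were below WT for 4 genes, Rtn1, Clec7a, Cd209a and Esam (16.2% of all genes), and above it for Itgam (15.2%). For Cd209a this rests on a small gap, since its highest Zeb2 Id2 DKO array and lowest WT array both stood at 6.61. All 7 arrays without Zeb2 were below all WT arrays for Rtn1 and Clec7a (1.09% of all genes) and above them for Itgam (0.833%).

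**Figure D1:**
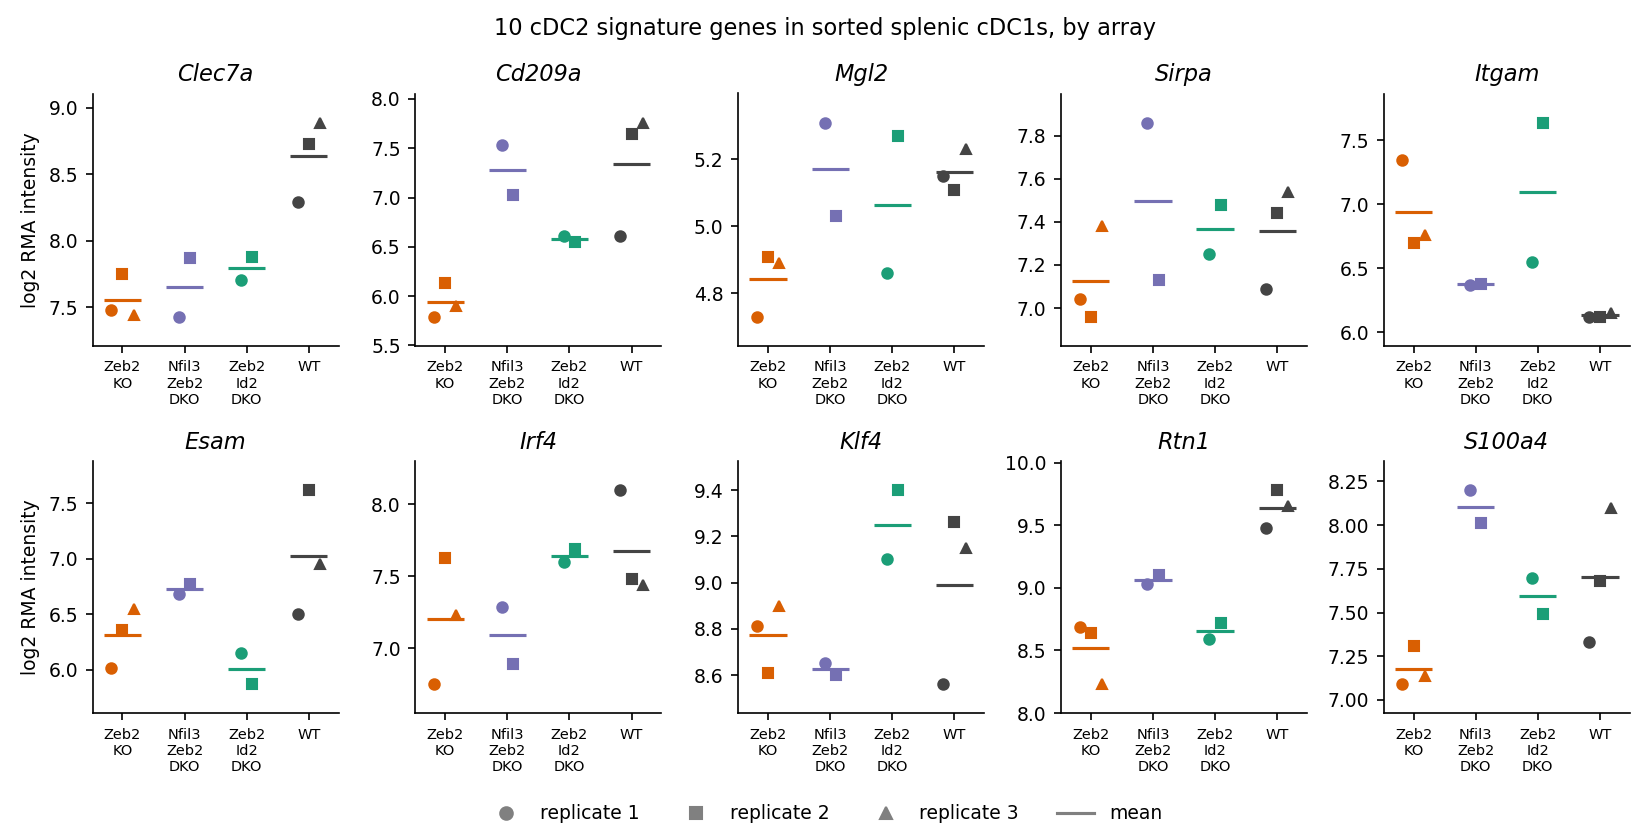
Log2 RMA intensity of the 10 cDC2 signature genes, 1 panel per gene and 1 point per array, with the genotypes along the x axis, marker shapes for replicate numbers and a bar at each genotype's mean; y axes differ and do not start at 0. All 7 arrays of the genotypes without Zeb2 lie below all 3 WT arrays for Rtn1 and Clec7a, and above them for Itgam.

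Rtn1 encodes a reticulon, a membrane protein that shapes the endoplasmic reticulum. Its level was 8.69, 8.64 and 8.23 in Zeb2 KO cells, 9.03 and 9.10 in Nfil3 Zeb2 DKO cells, 8.59 and 8.72 in Zeb2 Id2 DKO cells, and 9.48, 9.78 and 9.65 in WT. Every array without Zeb2 was thus below every WT array, and the 2 Nfil3 Zeb2 DKO arrays lay between WT and the other 5. Rtn1 was 2.16-fold lower in Zeb2 KO than in WT (8.52 ± 0.25 and 9.64 ± 0.15, SD, n = 3 each, adjusted p = 0.0255). It was 1.98-fold lower in Zeb2 Id2 DKO (8.65 ± 0.09, SD, n = 2) than in WT (limma adjusted p = 0.00695). In Nfil3 Zeb2 DKO its level was 9.06 ± 0.05 (SD, n = 2), a log2 difference of -0.57 [95% CI -0.88 to -0.26] from WT that did not pass the test (limma adjusted p = 0.732). The mean of the 3 genotypes without Zeb2 was 1.85-fold below WT for Rtn1 (limma adjusted p = 0.0111).

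The order of the Rtn1 means was Zeb2 KO, Zeb2 Id2 DKO, Nfil3 Zeb2 DKO and WT, from low to high. The lowest neighbours, Zeb2 Id2 DKO and Zeb2 KO, overlapped (log2 difference 0.13 [-0.18 to 0.44], adjusted p = 0.924). Nfil3 Zeb2 DKO was above Zeb2 KO by 0.54 [0.23 to 0.85] on the log2 scale with arrays that did not overlap, and this difference did not pass the test over all genes (limma adjusted p = 0.374). Zeb2 Id2 DKO differed from Nfil3 Zeb2 DKO by -0.41 [-0.75 to -0.07] for Rtn1, and this did not pass either (limma adjusted p = 0.319). An effect of losing Nfil3 or Id2 besides Zeb2 on Rtn1 was therefore not called.

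Clec7a encodes dectin-1, a C-type lectin receptor that binds fungal beta-glucans. Its level was 7.48, 7.75 and 7.44 in Zeb2 KO cells, 7.43 and 7.87 in Nfil3 Zeb2 DKO cells, 7.71 and 7.88 in Zeb2 Id2 DKO cells, and 8.29, 8.73 and 8.89 in WT. The highest array without Zeb2 was below the lowest WT array. Clec7a was 1.96-fold lower in the mean of the 3 genotypes without Zeb2 than in WT (log2 fold change -0.97 [-1.28 to -0.66], limma adjusted p = 0.0314). The separate differences from WT were of like size, -1.08 [-1.45 to -0.71] in Zeb2 KO cells, -0.99 [-1.40 to -0.58] in Nfil3 Zeb2 DKO cells and -0.84 [-1.25 to -0.43] in Zeb2 Id2 DKO. None of these 3 passed on its own (limma adjusted p = 0.106, 0.512 and 0.0587). Between the genotypes without Zeb2, the largest Clec7a difference was 0.24 [-0.17 to 0.65], of Zeb2 Id2 DKO over Zeb2 KO (limma adjusted p = 0.873). Macrophages also carry dectin-1. The mean of 11 red pulp macrophage markers was 5.94 to 6.44 in Zeb2 KO cells, 6.35 and 6.31 in Nfil3 Zeb2 DKO cells, 6.0 and 6.14 in Zeb2 Id2 DKO cells and 6.22 to 6.52 in WT. Of the 11, 2 were called lower in Zeb2 Id2 DKO cells than in WT cells and 0 in the other genotypes. They were Hpgd (log2 fold change -1.61, and -1.21 in Zeb2 KO) and Vcam1 (-1.06, and -0.85 in Zeb2 KO). The 11 did not move together. In Zeb2 Id2 DKO cells 4 values were above 0 and 7 below, with a median of -0.11. In Zeb2 KO cells 3 were above and 8 below, with a median of -0.13. The part of macrophages in the Clec7a values was not tested.

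Whether Rtn1 and Clec7a passed the test changed with single arrays. With 1 array left out at a time, Rtn1 was called in 4 of 10 fits for Zeb2 KO against WT (adjusted p 0.00543 to 0.181), in 8 of 10 for Zeb2 Id2 DKO against WT (0.000355 to 0.0928) and in 8 of 10 for the mean of the genotypes without Zeb2 (0.0011 to 0.118). The Rtn1 call in Zeb2 KO was lost without WT replicate 2 or 3, Zeb2 KO replicate 1 or 2, or either Nfil3 Zeb2 DKO array. The call in Zeb2 Id2 DKO was lost without either array of that genotype, and that for the mean without WT replicate 2 or 3. Clec7a was called in 4 of 10 fits for the mean (adjusted p 0.0111 to 0.234), those without Zeb2 KO replicate 2 or 3, Nfil3 Zeb2 DKO replicate 2 or WT replicate 1. Over these fits the Rtn1 difference from WT ranged from -1.20 to -0.97 in Zeb2 KO, from -1.06 to -0.91 in Zeb2 Id2 DKO and from -0.97 to -0.82 in the mean, and the Clec7a difference in the mean from -1.14 to -0.84. Setting each array to a common median also ended the Rtn1 call in Zeb2 KO cells (adjusted p = 0.0659) and the Clec7a call (0.054), as did a pseudocount of 16 (0.068 for Rtn1 and 0.0619 for Clec7a), and the Rtn1 call was also lost in a fit of Zeb2 KO and WT alone (0.0868). With arrays weighted by their scatter, both genes were called in each of the 3 genotypes against WT, Nfil3 Zeb2 DKO included (limma adjusted p = 0.0423 for Rtn1 and 0.0412 for Clec7a).

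**Figure D2:**
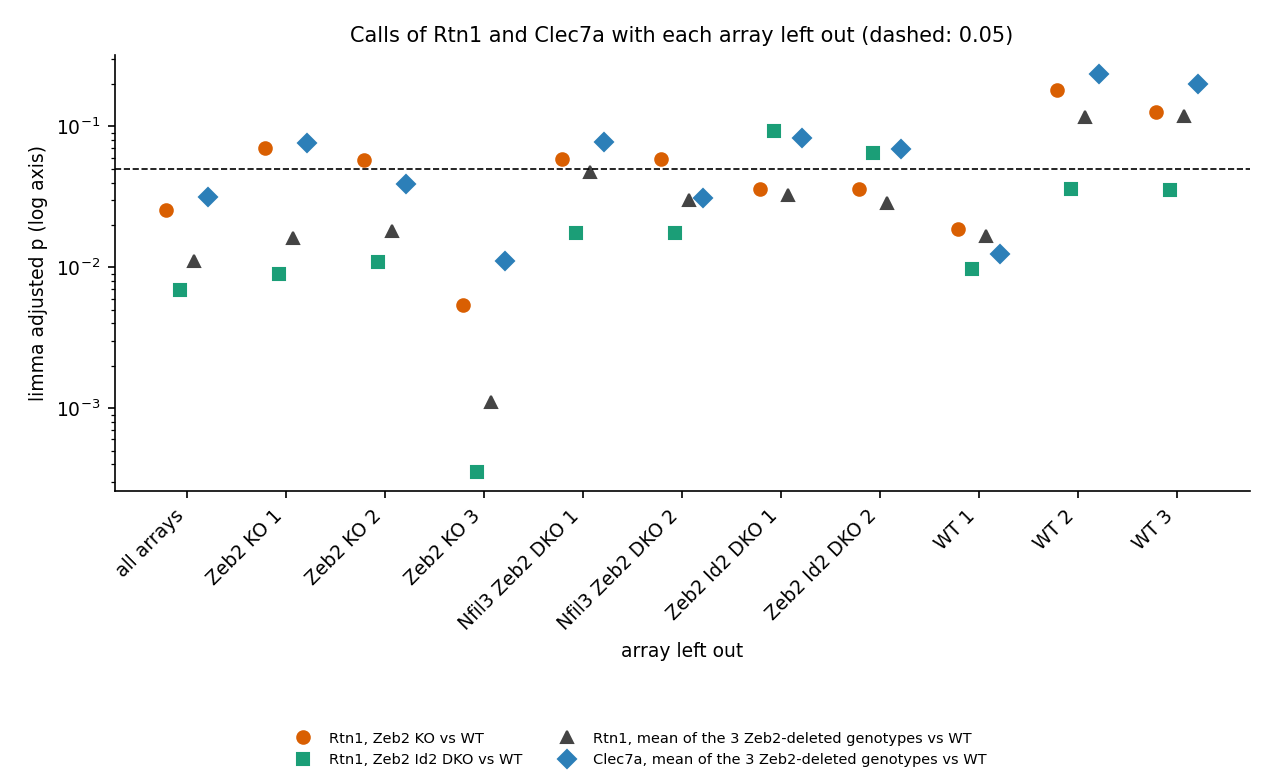
Adjusted p (y axis, log scale) of the 4 calls among the 10 genes, with all arrays (left) and with each array left out in turn (x axis); the dashed line is at 0.05. Points above the line are calls that were lost: all but the Zeb2 Id2 DKO call of Rtn1 lie above it without WT replicate 2 or 3.

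Cd209a and Mgl2 are the other C-type lectins of the group. Cd209a encodes a mouse relative of DC-SIGN, a receptor for mannose-rich sugars. Its level was 5.79, 6.13 and 5.90 in Zeb2 KO cells, 7.53 and 7.03 in Nfil3 Zeb2 DKO cells, 6.61 and 6.55 in Zeb2 Id2 DKO cells, and 6.61, 7.64 and 7.76 in WT. The Zeb2 KO arrays were below all others, the Nfil3 Zeb2 DKO arrays were within the range of WT, and WT replicate 1 stood with the Zeb2 Id2 DKO arrays. The log2 difference of Cd209a from WT was -1.40 [-1.97 to -0.82] in Zeb2 KO cells, -0.05 [-0.69 to 0.58] in Nfil3 Zeb2 DKO cells and -0.76 [-1.39 to -0.12] in Zeb2 Id2 DKO. The first and the third did not pass the test (limma adjusted p = 0.168 and 0.352). Nfil3 Zeb2 DKO was above Zeb2 KO by 1.34 [0.70 to 1.98] for Cd209a, without passing the test either (limma adjusted p = 0.374).

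The Cd209a calls changed with WT replicate 1. Without it, Cd209a was called lower than WT in Zeb2 KO (-1.76, limma adjusted p = 0.00581), in Zeb2 Id2 DKO (-1.12, adjusted p = 0.0131) and in the mean of the 3 genotypes (-1.10, adjusted p = 0.0158), and higher in Nfil3 Zeb2 DKO than in Zeb2 KO (1.34, adjusted p = 0.0367). Of all genes, 22, 277, 49 and 4 were called in these 4 comparisons without that array, against 4, 286, 47 and 1 with all arrays. With arrays weighted by their scatter and WT replicate 1 kept, Cd209a was called lower in Zeb2 KO alone of the 3 genotypes (-1.41, limma adjusted p = 0.0411). Without WT replicate 1, Clec7a was called in Zeb2 KO (adjusted p = 0.0218) and Zeb2 Id2 DKO (adjusted p = 0.0193) as well, and Esam in Zeb2 Id2 DKO (-1.28, adjusted p = 0.0292). Without Zeb2 KO replicate 3, Clec7a was also called in Zeb2 KO (adjusted p = 0.0324) and Zeb2 Id2 DKO (adjusted p = 0.0284). WT replicate 1 was the lowest WT array for 8 of the 10 genes and had the highest B cell marker mean of all arrays. Whether that array's makeup bears on these values was not tested.

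Of the 4 relatives of Cd209a that were looked up (Cd209b to Cd209e), Cd209e alone was called. Cd209d, a neighbouring paralog, was at 5.34, 5.42 and 5.30 in Zeb2 KO cells, 7.05 and 6.49 in Nfil3 Zeb2 DKO cells, 5.54 and 5.53 in Zeb2 Id2 DKO cells, and 5.75, 6.88 and 7.0 in WT. As for Cd209a, its Zeb2 KO arrays were low, its Nfil3 Zeb2 DKO arrays were high and WT replicate 1 was the lowest of WT, with no difference called (Zeb2 KO against WT -1.19, limma adjusted p = 0.265). Cd209e, another paralog, was at 5.17, 5.31 and 5.24 in Zeb2 KO cells, 5.93 and 5.78 in Nfil3 Zeb2 DKO cells, 6.96 and 6.48 in Zeb2 Id2 DKO cells, and 5.38, 5.83 and 5.87 in WT. Cd209e was higher in Zeb2 Id2 DKO cells than in WT cells (log2 fold change 1.03 [0.65 to 1.40], limma adjusted p = 0.0148) and than in Zeb2 KO (1.48 [1.11 to 1.85], limma adjusted p = 0.00382). Both Cd209e calls were lost without Zeb2 Id2 DKO replicate 1 (adjusted p = 0.173 and 0.0516). Cd209b and Cd209c differed from WT by no more than 0.18 on the log2 scale in any genotype. Both were dim, below each array's median level of 6.25 to 6.37, so a small difference says little. Cd209e was also below that level in all but the Zeb2 Id2 DKO arrays. How far the probes tell these related genes apart was not tested.

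Mgl2 encodes CD301b, a lectin for galactose-type sugars found on dermal and some other cDC2s. It was the dimmest of the 10 probe sets, below each array's median level of 6.25 to 6.37. Its level was 4.73, 4.91 and 4.89 in Zeb2 KO cells, 5.31 and 5.03 in Nfil3 Zeb2 DKO cells, 4.86 and 5.27 in Zeb2 Id2 DKO cells, and 5.15, 5.11 and 5.23 in WT. The Zeb2 KO arrays were below the WT arrays by -0.32 [-0.58 to -0.06] on the log2 scale, without passing the test (limma adjusted p = 0.542), and Mgl2 in both DKO genotypes overlapped WT. Clec10a, its neighbouring paralog CD301a, differed from WT by -0.36 in Zeb2 KO cells, -0.13 in Nfil3 Zeb2 DKO cells and -0.29 in Zeb2 Id2 DKO cells, none called.

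Of the 3 surface proteins with which cDC2s are usually sorted or divided, none was called in any genotype. Sirpa encodes SIRP-alpha, the receptor for CD47. Its level was 7.04, 6.96 and 7.38 in Zeb2 KO cells, 7.86 and 7.13 in Nfil3 Zeb2 DKO cells, 7.25 and 7.48 in Zeb2 Id2 DKO cells, and 7.09, 7.44 and 7.54 in WT. All genotypes overlapped for Sirpa: the log2 differences from WT were -0.23 [-0.65 to 0.19] in Zeb2 KO cells, 0.14 [-0.33 to 0.61] in Nfil3 Zeb2 DKO cells and 0.01 [-0.46 to 0.48] in Zeb2 Id2 DKO. Differences smaller than about these bounds could not be shown with this number of arrays.

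Itgam encodes the integrin alpha chain CD11b, which neutrophils and monocytes carry as well as cDC2s. Its level was 7.35, 6.70 and 6.76 in Zeb2 KO cells, 6.37 and 6.38 in Nfil3 Zeb2 DKO cells, 6.55 and 7.64 in Zeb2 Id2 DKO cells, and 6.12, 6.12 and 6.15 in WT. Itgam was the one gene of the 10 whose arrays without Zeb2 all lay above WT. Its signal was low: WT levels were below those arrays' medians (6.31 to 6.32). Nfil3 Zeb2 DKO levels were close to the medians of their arrays (6.34 and 6.35). The log2 differences from WT were 0.81 [0.27 to 1.34] in Zeb2 KO cells, 0.24 [-0.35 to 0.84] in Nfil3 Zeb2 DKO cells and 0.97 [0.37 to 1.57] in Zeb2 Id2 DKO cells, and the first and last had limma adjusted p-values of 0.431 and 0.146. Itgam was highest on Zeb2 Id2 DKO replicate 2 and Zeb2 KO replicate 1, the arrays with the highest neutrophil marker means (9.49 and 9.50), and lowest on the WT arrays, where those means were also lowest. With both of these arrays left out, the Itgam difference was 0.60 in Zeb2 KO cells and 0.42 in Zeb2 Id2 DKO. Each was the highest array of its genotype for Itgam, so leaving them out had to lower both differences, whatever the cause. Without Zeb2 Id2 DKO replicate 1, which leaves the single array with the high neutrophil mean, the Itgam difference was 1.51 in that genotype. With all 10 arrays kept and weighted by their scatter, Itgam was called higher in Zeb2 Id2 DKO cells than in WT cells, where 1076 of all genes were called. All 11 neutrophil markers had values above 0 in each comparison with WT; 1 of 11 was called higher in Zeb2 KO cells, 0 in Nfil3 Zeb2 DKO cells and 7 in Zeb2 Id2 DKO. The mean of 8 genes listed as monocyte markers was 6.38 to 6.85 in Zeb2 KO cells, 6.47 and 6.49 in Nfil3 Zeb2 DKO cells, 6.78 and 7.0 in Zeb2 Id2 DKO cells and 6.26 to 6.35 in WT. In Zeb2 Id2 DKO cells against WT, 5 of the 8 had values above 0 and 3 below. Of the 8, 1 was called higher (0.878% of all genes) and 5 had an unadjusted p under 0.05 (10.2% of all genes). Of the 8, Chil3 (8.48 and 8.15) and Cd177 (7.63 and 7.77) were highest on Zeb2 Id2 DKO replicate 2 and Zeb2 KO replicate 1. Neutrophil marker means were also highest there, so the mean of the 8 alone cannot tell monocytes from neutrophils. Ms4a6c and Ccr2 were alike on both Zeb2 Id2 DKO arrays. Ms4a6c was at 10.02 on each (9.27 to 9.46 in WT), and Ccr2 at 8.89 and 8.85 (7.48 to 8.17 in WT). The part of both cell types in the Itgam values was not tested. Further probe sets that name Itgam together with Rpl35 were not used.

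Esam encodes an endothelial cell adhesion molecule that marks NOTCH2-dependent splenic cDC2s. Its level was 6.02, 6.36 and 6.55 in Zeb2 KO cells, 6.68 and 6.77 in Nfil3 Zeb2 DKO cells, 6.15 and 5.87 in Zeb2 Id2 DKO cells, and 6.50, 7.62 and 6.95 in WT. The Zeb2 Id2 DKO arrays were below all WT arrays, and the other genotypes overlapped WT through WT replicate 1. The log2 differences of Esam from WT were -0.71 [-1.24 to -0.19] in Zeb2 KO cells, -0.30 [-0.89 to 0.29] in Nfil3 Zeb2 DKO cells and -1.01 [-1.60 to -0.42] in Zeb2 Id2 DKO cells, with a limma adjusted p of 0.115 for the last.

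The 2 transcription factors of the group, Irf4 and Klf4, were not called. Irf4, which cDC2s need for their function and migration and which B cells also express, was at 6.75, 7.63 and 7.23 in Zeb2 KO cells, 7.29 and 6.89 in Nfil3 Zeb2 DKO cells, 7.60 and 7.69 in Zeb2 Id2 DKO cells, and 8.10, 7.48 and 7.44 in WT. Its log2 differences from WT were -0.47 [-0.97 to 0.04] in Zeb2 KO cells, -0.58 [-1.14 to -0.01] in Nfil3 Zeb2 DKO cells and -0.02 [-0.59 to 0.54] in Zeb2 Id2 DKO. Irf4 was highest on WT replicate 1 and, within Zeb2 KO cells, on replicate 2, the arrays with the highest B cell marker means. With both of these arrays left out, the Irf4 difference was -0.47 in Zeb2 KO cells, -0.36 in Nfil3 Zeb2 DKO cells and 0.19 in Zeb2 Id2 DKO. As WT replicate 1 was the highest WT array for Irf4, leaving it out had to raise the differences of both DKO genotypes, whatever the cause. The part of B cells in the Irf4 values was not tested.

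Klf4 encodes a Krüppel-like zinc finger factor needed for a subset of cDC2s. Its level was 8.81, 8.61 and 8.90 in Zeb2 KO cells, 8.65 and 8.60 in Nfil3 Zeb2 DKO cells, 9.10 and 9.40 in Zeb2 Id2 DKO cells, and 8.56, 9.26 and 9.15 in WT. The genotypes without Zeb2 lay inside or just above the wide range of WT. Klf4 was above Nfil3 Zeb2 DKO in Zeb2 Id2 DKO by 0.62 [0.17 to 1.07] and above Zeb2 KO by 0.48 [0.06 to 0.89], with arrays that did not overlap, and neither difference passed (limma adjusted p = 0.235 and 0.571).

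**Figure D3:**
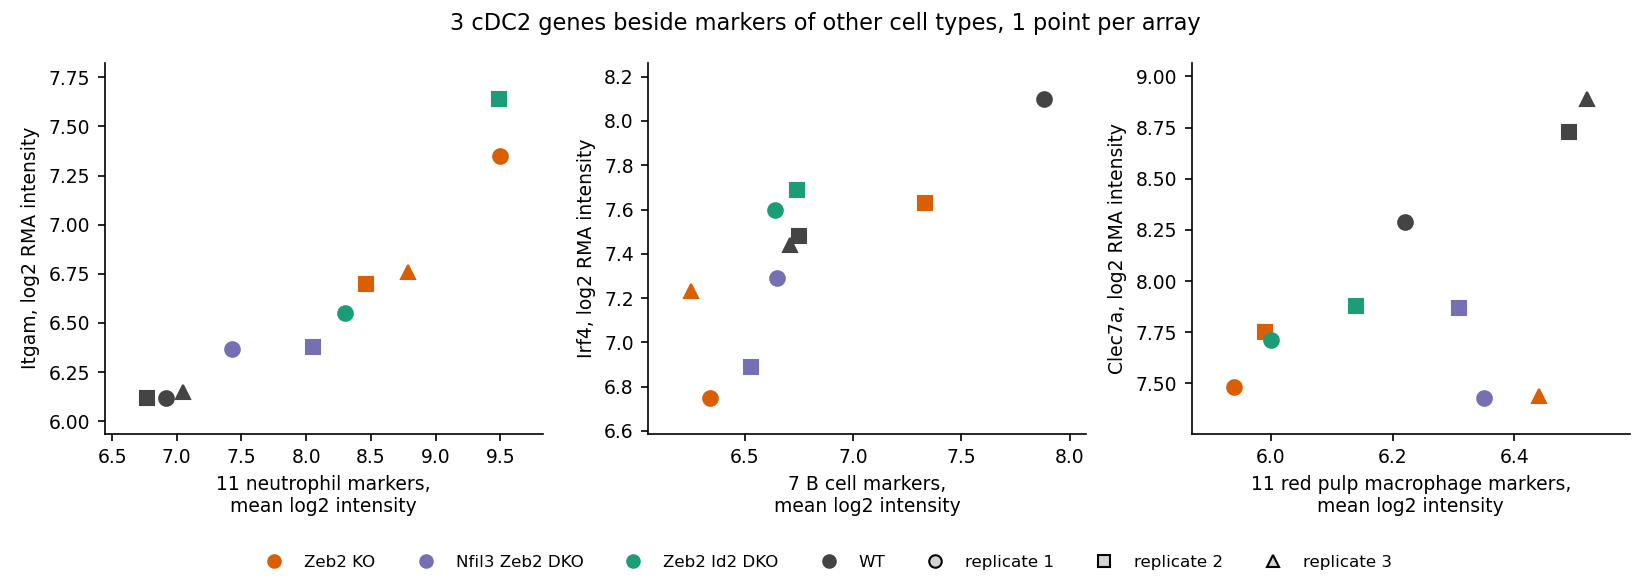
Log2 RMA intensity of Itgam, Irf4 and Clec7a (y axes) on the 10 arrays, against the mean log2 intensity of neutrophil, B cell and red pulp macrophage markers (x axes); colours are genotypes and shapes are replicate numbers. Itgam was highest on the arrays with neutrophil marker means of 9.49 and 9.50, Irf4 on the array with a B cell marker mean of 7.88, and Clec7a was below all WT arrays on the 7 arrays without Zeb2, of which 4 had macrophage marker means (5.94 to 6.14) below those of every WT array (6.22 to 6.52) and 3 had means of 6.31 to 6.44.

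S100a4 encodes a calcium-binding protein of motile cells. Its level was 7.09, 7.31 and 7.14 in Zeb2 KO cells, 8.20 and 8.01 in Nfil3 Zeb2 DKO cells, 7.70 and 7.49 in Zeb2 Id2 DKO cells, and 7.33, 7.68 and 8.10 in WT. The Zeb2 KO arrays were below all other arrays, and the Nfil3 Zeb2 DKO arrays were at or just above the top of the WT range. Nfil3 Zeb2 DKO was above Zeb2 KO by 0.93 [0.52 to 1.33] on the log2 scale for S100a4, and this did not pass the test over all genes (limma adjusted p = 0.374). Against WT the S100a4 differences were -0.52 [-0.89 to -0.16] in Zeb2 KO cells, 0.40 [-0.00 to 0.81] in Nfil3 Zeb2 DKO cells and -0.11 [-0.52 to 0.30] in Zeb2 Id2 DKO.

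**Figure D4:**
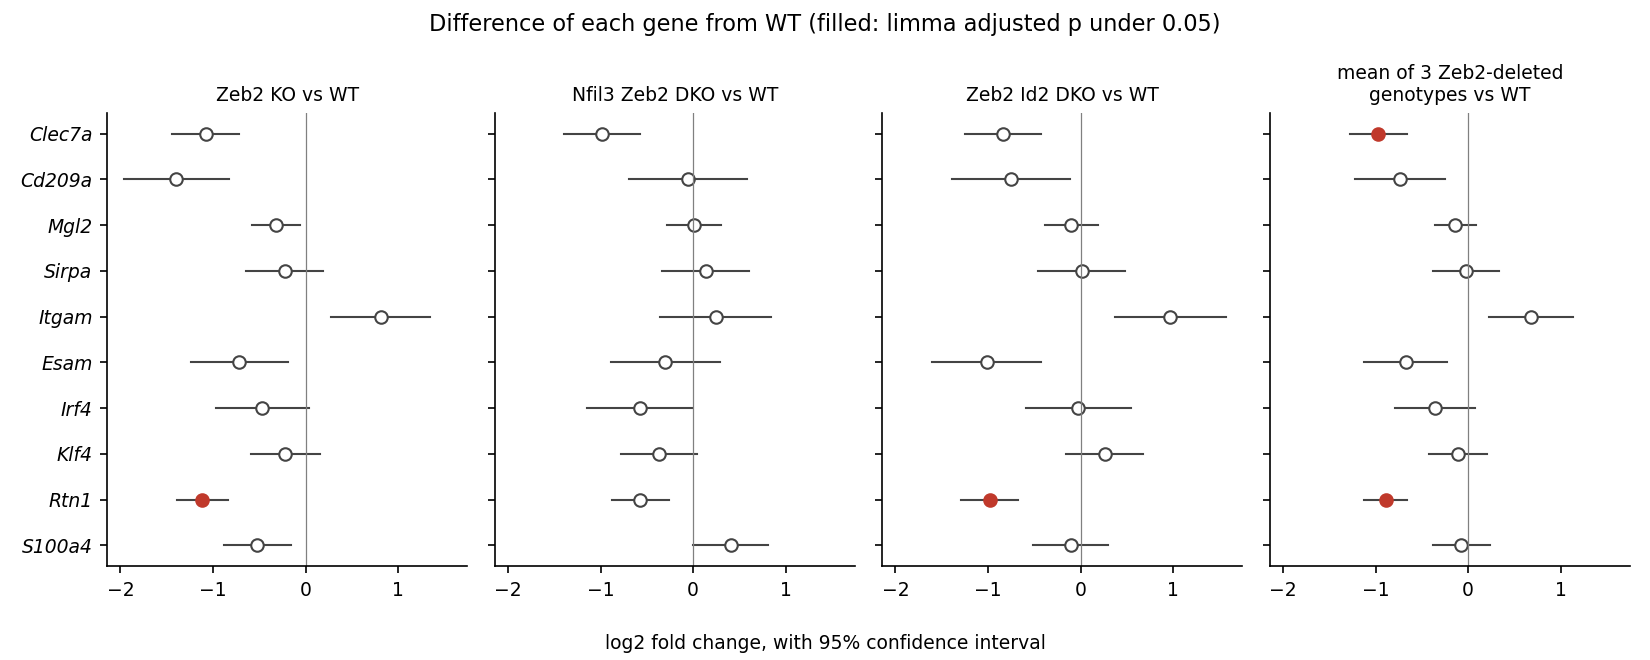
Log2 fold change from WT of each of the 10 genes (x axis), with 95% confidence intervals from limma, in Zeb2 KO cells, Nfil3 Zeb2 DKO, Zeb2 Id2 DKO and the mean of these 3 genotypes; filled points have an adjusted p under 0.05. Filled are Rtn1 in Zeb2 KO and Zeb2 Id2 DKO, and Rtn1 and Clec7a in the mean, all left of 0.

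Set against Zeb2 KO, Nfil3 Zeb2 DKO was higher for 7 of the 10 genes by value, with a median of 0.35. Its 2 arrays lay above all Zeb2 KO arrays for 5 of them (Cd209a, S100a4, Rtn1, Mgl2 and Esam), where this held for 11.9% of all genes, and below for Itgam (10.2%). None of the 10 was called by limma, 4 had an unadjusted p under 0.05 (8.5% of all genes), and 0.00502% of all genes were called. Zeb2 Id2 DKO was above Zeb2 KO for 9 of 10 by value, with a median of 0.24; none was called (0.497% of all genes) and 3 had an unadjusted p under 0.05 (7.35% of all genes). Between Zeb2 Id2 DKO and Nfil3 Zeb2 DKO, 4 of 10 values were above 0, none was called by limma (0.792% of all genes, 0.211% lower) and 6 had an unadjusted p under 0.05 (11.5% of all genes). The Zeb2 Id2 DKO arrays lay below the Nfil3 Zeb2 DKO arrays for 4 genes (29.5% of all genes) and above them for 3 (22.9%). The comparisons with Zeb2 KO share its 3 arrays with the comparison of Zeb2 KO and WT.

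Other genes of cDC2s were read from a list of 30, of which 28 were measured. By limma, 0 of these 28 were called in any comparison. In the mean of the 3 genotypes against WT, 11 values were above 0 and 17 below, with a median of -0.08, and 7 had an unadjusted p under 0.05, against 6.57% of all genes. The smallest p-values were those of the Fc receptor gene Fcgr3 (log2 fold change 0.36, limma adjusted p = 0.411), the lymphotoxin gene Ltb (-0.39, adjusted p = 0.461), Cd209d (-0.66, adjusted p = 0.523) and the G-CSF receptor gene Csf3r (0.29, adjusted p = 0.601), so values on both sides of 0 led the list. Of these, Fcgr3 and Csf3r are also genes of neutrophils, whose markers had values above 0 in these genotypes, and the part of neutrophils in both values was not tested. By genotype, 21 of 28 values were below 0 in Zeb2 KO (median -0.18), 14 of 28 in Nfil3 Zeb2 DKO (median -0.00) and 16 of 28 in Zeb2 Id2 DKO (median -0.12). An unadjusted p under 0.05 was reached by 6, 0 and 13 of the 28 in these genotypes, against 7.39%, 4.16% and 10.2% of all genes.

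**Figure D5:**
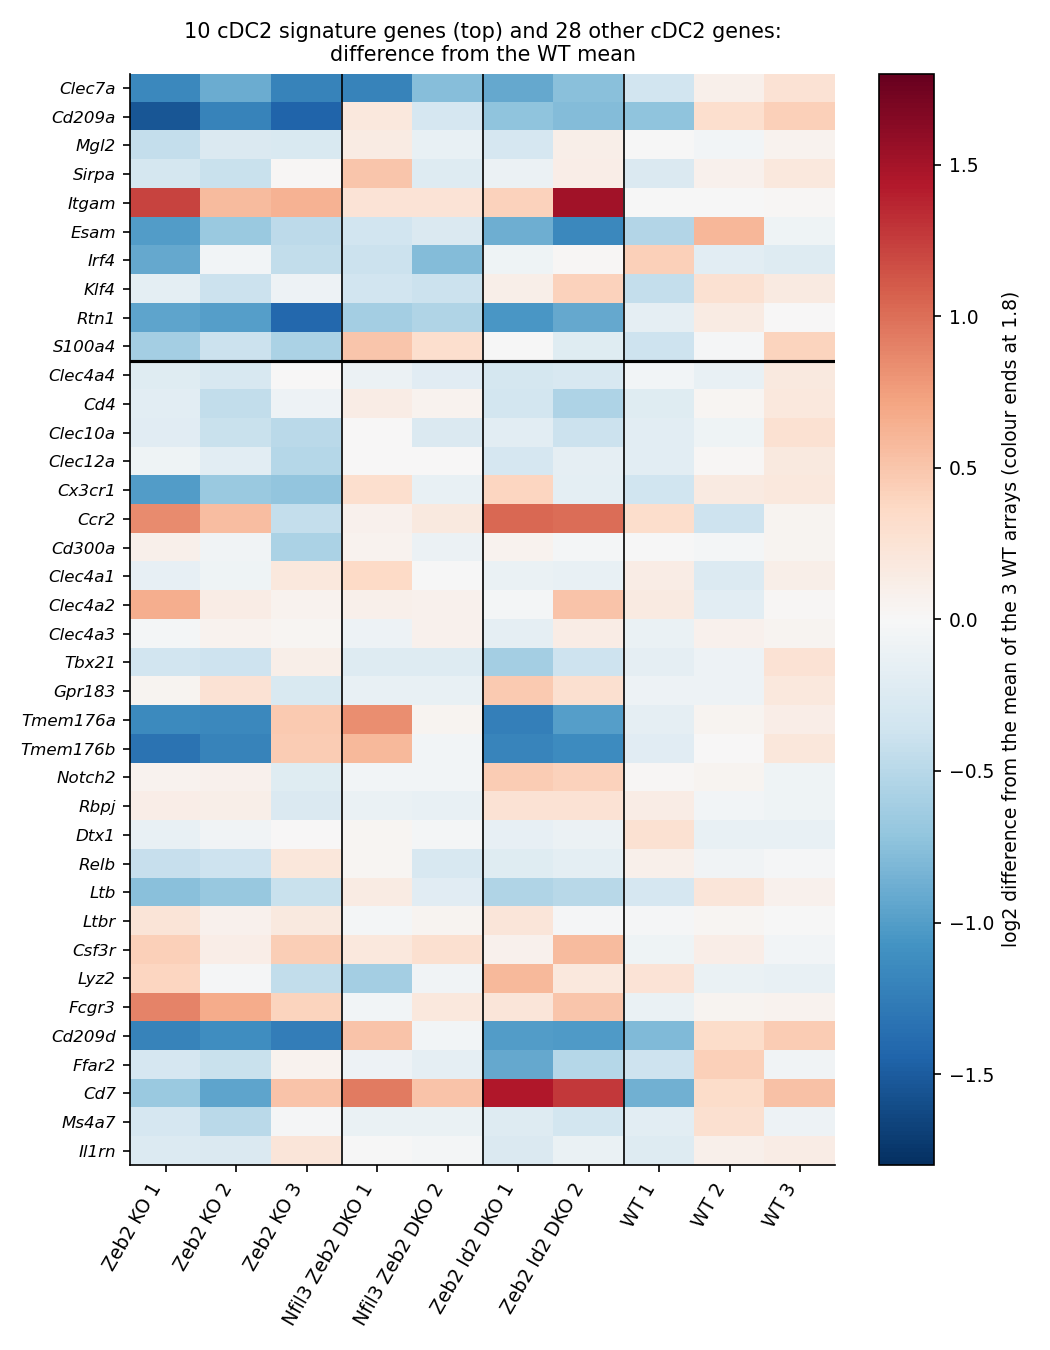
Log2 difference of each array (columns) from the mean of the 3 WT arrays, for the 10 cDC2 signature genes above the line and 28 other measured cDC2 genes below it; blue is below and red above the WT mean. Rtn1 and Clec7a are blue on all 7 arrays without Zeb2 and Itgam is red on them, and no gene below the line had a limma adjusted p under 0.05.

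The genes with the pattern most like each called gene were found by Pearson correlation over the 10 arrays. They were sought among 1007 genes with a standard deviation of at least 0.3, with predicted genes of a Gm or Rik name left out. For Clec7a they were Nr4a3 (r = 0.953), Slc25a33 (0.932), Arrdc3 (0.899), Cd80 (0.893) and Mpzl2 (0.876). For Rtn1 they were Klri1 (0.932), Nr4a3 (0.923), Cd80 (0.916), Gypc (0.912) and Cd1d1 (0.898). Nr4a3, an orphan nuclear receptor, and Cd80, a costimulatory ligand, were thus near both. Cd80 differed from WT by -0.71 in Zeb2 KO cells, -0.41 in Nfil3 Zeb2 DKO cells and -0.54 in Zeb2 Id2 DKO cells, and Nr4a3 by -0.74, -0.54 and -0.46 in the same genotypes. These correlations run over the same 10 arrays and genotype differences and are given as a description.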

How the data were processed

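Total RNA of sorted splenic cDC1s was amplified, biotin-labelled and hybridised to 10 arrays. The authors used RMA in Affymetrix Expression Console, per the submitters' processing notes, which name no version. The deposited values are linear RMA intensities, and log2 of these intensities was taken, with no pseudocount and no filter on level. Of 28853 probe sets, 21789 named 1 gene, 1621 several and 5443 none in the platform annotation; only those naming 1 gene were used. For 999 genes with several such probe sets, the brightest on average was kept; each of the 10 cDC2 genes had 1. Depth does not apply to arrays, and their number limits precision: the 95% intervals of the 10 genes reached 0.22 to 0.70 to either side.

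With limma 3.58.1 in R 4.3.3, each genotype was given a mean, fitted on all 10 arrays (6 residual and 4.47 prior degrees of freedom), and p-values were adjusted by Benjamini-Hochberg over 19938 genes in each of 7 comparisons: every pair of genotypes, and the mean of the 3 without Zeb2 against WT. The fit was tested on simulated data. Groups come from the labels. Named genes are the 10, other cDC2 genes that passed a test or had the 4 smallest p in the comparison of the mean, related genes, and the 5 most alike genes per called gene; Cd80 and Nr4a3 were singled out after their values were seen. The genes, lists and leave-out pairs were chosen with earlier results of these data known. Alternatives were other probe set rules, scalings, a pseudocount, variance settings, array weights, fits of only the genotypes compared, a replicate block, and left-out arrays. Promoter windows come from RefSeq.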

Additional observations from a re-analysis of the deposited data

Results flagged for a closer look

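The effect of genotype on Cd209e, a paralog of Cd209a, differed between Zeb2 Id2 DKO and Zeb2 KO cells. Its level in Zeb2 KO and WT cells was below each array's median level. Set against WT, its log2 fold change was 1.03 [0.65 to 1.40] in Zeb2 Id2 DKO cells and -0.45 [-0.78 to -0.12] in Zeb2 KO cells, and the difference between these effects was 1.48 (limma adjusted p = 0.00382 over all genes). Without Zeb2 Id2 DKO replicate 1 the difference was 1.23 (limma adjusted p = 0.0516), and over all fits with an array left out it ranged over 1.23 to 1.72 and passed the test in 9 of 10.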

How the results depend on the processing

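The count of the 10 cDC2 genes called was 1 in Zeb2 KO, 0 in Nfil3 Zeb2 DKO, 1 in Zeb2 Id2 DKO and 2 in the mean of the 3 genotypes, each against WT, and 0 in the comparisons among genotypes without Zeb2. With each array left out in turn it ranged over 0 to 3, 0 to 0, 0 to 4 and 0 to 3 against WT, over 0 to 1 between Nfil3 Zeb2 DKO and Zeb2 KO, and was 0 in every such fit of the other comparisons. With a common median per array or a pseudocount of 16 it was 0 for Zeb2 KO and 1 for the mean. Of all genes, 0 were then called for Zeb2 KO in both settings. For the mean, 22 and 21 of all genes were called. Array weights gave 3, 2 and 4 against WT in the order above, and 1 between the DKO genotypes. Of all genes, array weights called 75, 23 and 1076 against WT, where 4, 1 and 286 were called without weights. Between the DKO genotypes, array weights called 1139 of all genes. Fits of only the 2 genotypes compared gave 0 for Zeb2 KO, 2 for Zeb2 Id2 DKO and 5 between the DKO genotypes. Of all genes, these fits called 1, 554 and 833. Pairs of arrays were left out together, chosen after seeing the data. Without the 2 arrays with the highest neutrophil marker means, the count was 0 for Zeb2 KO, where 4 of all genes were called. That fit left 1 Zeb2 Id2 DKO array, so counts that use this genotype are not given. Without the 2 arrays with the highest B cell marker means, counts were 3 for Zeb2 KO and 4 for Zeb2 Id2 DKO. Of all genes, 12 and 248 were called in the same comparisons. Without WT replicate 1 and Zeb2 KO replicate 3, counts of the 10 were 6, 2 and 4 against WT in the order above, and 4 for the mean. They were 2 for Nfil3 Zeb2 DKO and 1 for Zeb2 Id2 DKO against Zeb2 KO, and 3 between the DKO genotypes. Of all genes, 500, 62 and 1104 were then called against WT, and 526 for the mean, against 47 with all arrays. Against Zeb2 KO, 266 and 245 of all genes were called, and 958 between the DKO genotypes. The number of all genes called moved too: Zeb2 Id2 DKO against WT had 286, but 67 without Zeb2 Id2 DKO replicate 2, 760 without Zeb2 KO replicate 3 and 1076 with array weights. The cause of these shifts was not tested.

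The replicate numbers of the labels did not pair the arrays (correlations of same-numbered deviations between Zeb2 KO and WT, -0.31 to 0.04; 0 of 6 arrays correlated best with their own number). With a replicate block the count was 2 in Zeb2 KO and 2 in Zeb2 Id2 DKO against WT (Clec7a and Rtn1 in each), and all other counts were as without it. Of all genes, 8 and 183 were called in these 2 comparisons with the block, against 4 and 286 without it.

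Signs turned only for differences that were not called with all arrays. Against WT, the Nfil3 Zeb2 DKO value of Mgl2 was -0.026 after quantile normalization, -0.0199 with a common median and -0.13 to 0.15 with an array left out. That of Cd209a was 0.039 with the replicate block and -0.42 to 0.19 with an array left out, and that of Sirpa was -0.23 to 0.50. The Zeb2 Id2 DKO value of Irf4 was 0.0039 with a common median, 0.035 with array weights, -0.14 to 0.19 with an array left out, and 0.19 without either pair that holds WT replicate 1. That of Sirpa was -0.017 with array weights, -0.12 to 0.13 with an array left out, -0.10 without the neutrophil-high pair and -0.12 without either pair with WT replicate 1. Those of Mgl2 and S100a4 ranged over -0.31 to 0.11 and -0.29 to 0.089. In the mean of the 3 genotypes, Sirpa was 0.048 with the replicate block and -0.16 to 0.097 with an array left out, Klf4 -0.32 to 0.026 and S100a4 -0.26 to 0.12. Rtn1 in Zeb2 Id2 DKO against Zeb2 KO was -0.012 to 0.21 with an array left out and -0.012 without WT replicate 1 and Zeb2 KO replicate 3. Mgl2 was not measured in the fit of genes above the median level. With 2 or 3 arrays per genotype, and Mgl2 among the dim probe sets, small differences could not be resolved.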

Other observations

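Some cDC2 genes outside the 10 split the arrays of a single genotype; they were chosen after their values were seen. Tmem176a and Tmem176b, which encode related membrane proteins, were lower by over 1 on the log2 scale in 2 of the 3 Zeb2 KO arrays than in the other. Tmem176a was at 6.90, 6.88 and 8.52 in Zeb2 KO cells, 8.89 and 8.10 in Nfil3 Zeb2 DKO cells, 6.82 and 7.05 in Zeb2 Id2 DKO cells, and 7.88, 8.09 and 8.17 in WT cells. Tmem176b was at 7.24, 7.37 and 9.03 in Zeb2 KO cells, 9.15 and 8.52 in Nfil3 Zeb2 DKO cells, 7.38 and 7.44 in Zeb2 Id2 DKO cells, and 8.37, 8.57 and 8.77 in WT cells. Zeb2 KO replicate 3 thus stood with the Nfil3 Zeb2 DKO and WT arrays for both genes. The mean of 11 red pulp macrophage markers was also higher on Zeb2 KO replicate 3 (6.44) than on replicates 1 and 2 (5.94 and 5.99). Of the 11, Spic (7.35 against 5.93 and 5.70) and Hmox1 (8.74 against 7.37 and 7.22) were higher there by the most. Vcam1, Hpgd, Cd163, C1qb, C1qc and Mrc1 were also higher there. Adgre1 (5.59 against 5.65 and 5.59), Slc40a1 (5.5 against 5.6 and 5.43) and C1qa (6.01 against 5.89 and 6.1) were not above both. The part of macrophages in this split was not tested. Cd7, a receptor of T and NK cells, was at 8.19, 7.91 and 9.38 in Zeb2 KO cells, 9.80 and 9.37 in Nfil3 Zeb2 DKO cells, 10.31 and 10.14 in Zeb2 Id2 DKO cells, and 8.0, 9.20 and 9.39 in WT cells, so that WT replicate 1 stood with 2 of the Zeb2 KO arrays. None of these differences was called.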
